A study of Mus musculus with 6 samples.

Results

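Monocytes that enter the CNS in EAE, a model of multiple sclerosis in which mice are immunized with a myelin antigen, act as APCs for Th cells, and the cytokines they make help to set what those Th cells become. The genes described here are 10 such cytokine genes of the 54232 genes in the deposited files: Il6, Il10, Il12a, Il12b, Il15, Il23a, Il27, Ebi3, Tgfb1 and Osm. They were chosen by name, for their known roles. Earlier results of these data were known, but no measured value entered the rule. Their RNA was measured in 3 libraries of WT and 3 libraries of Ifnar1-/- monocytes, so the question put to each gene was whether its RNA level differed between monocytes with and without IFNAR1, 1 of the 2 chains of the type I IFN receptor.

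The monocytes came from mixed chimera mice. GFP+ recipients were lethally irradiated and given equal numbers of BM cells from WT donors, which carried the CD45.1 allele, and from Ifnar1-/- donors, which carried CD45.2. EAE was induced several weeks later, every mouse received rIFN-β at 30000 IU per day, and at disease peak GFP- CD45+ CD11b+ Ly6Chi Ly6G- cells were sorted from the CNS as the donor-derived monocytes. All 6 libraries were therefore from irradiated, immunized and rIFN-β-treated mice, none came from mice without rIFN-β, and the receptor was absent from Ifnar1-/- cells from their origin onward. The donor's CD45 allele and the Ifnar1 genotype cannot be told apart in this design, and nothing in the labels ties a library to a mouse, so p-values measure the spread between these libraries.

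Th cells take up different programmes according to the cytokines present when they meet antigen. IL-12 favours Th1 cells, IL-6 together with TGF-β starts the Th17 programme and IL-23 sustains it, whereas IL-10, IL-27 and TGF-β in other settings restrain effector Th cells. The IL-12 family works as pairs of chains that are shared between cytokines: IL-12 is p35 (Il12a) with p40 (Il12b), IL-23 is p19 (Il23a) with the same p40, IL-27 is p28 (Il27) with EBI3 (Ebi3), and IL-35 is EBI3 with p35. Since the chains act in pairs, the levels of partner chains are given side by side.

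Expected counts, the read counts that RSEM assigns to each gene, totalled 4531782 to 7321380 per WT library and 5442568 to 6916101 per Ifnar1-/- library. Levels are compared between libraries as normalized CPM, counts relative to the total of each library after TMM adjustment. Where 3 values are listed for a group, they are those of libraries 1, 2 and 3 in that order. Levels of different genes are compared within a library as the deposited TPM, which also divides by transcript length. The detection floor, set at 3 counts, was worth between 0.41 and 0.662 CPM, and floors and counting intervals cover counting error only. Of the 7 monocyte markers, Ly6c2 was the only one called, at 640 to 788 normalized CPM in WT and 177 to 337 in Ifnar1-/- libraries. Ccr2 was lower in every WT library (587 to 694 against 794 to 1269), as were 12.2% of all tested genes. Fcgr1 was higher in every WT library (271 to 413 against 192 to 203), as were 11.1% (edgeR adjusted p = 0.143 for Ccr2 and 0.0839 for Fcgr1). Itgam, Csf1r, Lyz2 and Ptprc overlapped between the groups, at 596 normalized CPM or more in every library. Ly6g, the neutrophil marker excluded by the gate, was at 0 to 0.79 normalized CPM, although the 8 neutrophil markers together summed to between 190 and 2350. Ifnar1 itself, counted over the whole gene, was at 130 ± 21 normalized CPM in WT and 107 ± 4.73 in Ifnar1-/- libraries (SD, n = 3 each; edgeR adjusted p = 0.36), and gene-level counts do not show which exons were read, so this gene neither bears out nor contradicts the labels.

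Upstream sequence was available for 5 of the 10 genes (Il6, Il12a, Il12b, Ebi3 and Tgfb1) in the RefSeq promoter table. The 250 bases before the annotated start are shown for the gene with the highest TPM (Tgfb1), the gene with the lowest (Il12b), and for Il6 and Ebi3, whose levels lay between them. All 4 are on the forward strand of GRCm38.p6, at chr7:25686752-25687001 (Tgfb1), chr11:44399813-44400062 (Il12b), chr5:30012864-30013113 (Il6) and chr17:55952373-55952622 (Ebi3). Capitals mark matches on either strand to a short form of the site bound by NF-κB, the letters GGGA, then any 4 bases, then CC.
Tgfb1: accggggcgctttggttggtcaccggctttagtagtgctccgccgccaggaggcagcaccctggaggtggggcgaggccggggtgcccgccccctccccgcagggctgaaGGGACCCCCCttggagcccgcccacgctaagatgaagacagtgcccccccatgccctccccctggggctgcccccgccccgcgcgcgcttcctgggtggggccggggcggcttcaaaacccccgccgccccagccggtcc
Il12b: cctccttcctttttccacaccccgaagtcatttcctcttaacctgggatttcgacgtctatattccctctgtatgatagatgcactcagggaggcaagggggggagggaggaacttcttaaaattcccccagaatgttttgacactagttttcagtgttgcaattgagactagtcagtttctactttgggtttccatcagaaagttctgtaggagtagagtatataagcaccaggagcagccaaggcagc
Il6: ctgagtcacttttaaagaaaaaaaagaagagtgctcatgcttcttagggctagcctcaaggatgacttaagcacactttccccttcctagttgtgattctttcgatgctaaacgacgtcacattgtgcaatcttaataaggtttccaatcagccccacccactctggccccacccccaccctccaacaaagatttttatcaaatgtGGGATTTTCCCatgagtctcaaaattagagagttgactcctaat
Ebi3: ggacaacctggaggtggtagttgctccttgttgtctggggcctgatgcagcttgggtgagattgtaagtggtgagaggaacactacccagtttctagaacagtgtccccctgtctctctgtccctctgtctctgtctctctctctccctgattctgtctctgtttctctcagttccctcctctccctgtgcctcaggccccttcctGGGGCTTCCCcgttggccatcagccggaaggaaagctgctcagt

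These windows differed in composition. The Tgfb1 window was 75.2% G or C and held 5 matches to GGGCGG, the GC box read by Sp1-type factors, whereas the Il6 window was 42.8% and the Il12b window 46.0% G or C. The NF-κB letters were present in the Il6 window at 44 to 35 bases before the start, as GGGATTTTCC, and in the Ebi3 window at the same distance on the reverse strand. They were also present in the Tgfb1 window at 140 to 131 bases before the start and upstream of 1 of the 2 annotated Il12a starts, and were not in the Il12b window. Of the 32851 promoter windows of this length in the table, 17.6% held these letters on either strand, and 32.7% held a GC box. A short form of the ISRE, an element found upstream of many IFN-induced genes (GAAA, any 2 bases, GAAA), was in 2.98% of all windows. It was in none of the 6 available windows of these cytokine genes. Such matches describe letters in 250 bases and say nothing about which factors act on a gene.

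Tgfb1 and Osm were the abundant transcripts of the group, Ebi3, Il12a, Il27, Il6 and Il15 were low, and Il23a, Il10 and Il12b were near or below the detection floor. Averaged over the 6 libraries, Tgfb1 stood at percentile 94.7 of protein-coding genes with any count by TPM, and Osm at 86.4. Ebi3 (52.1), Il12a (50.2), Il27 (46.7) and Il6 (45.4) lay near the middle of that ranking, followed by Il15 (38.3). Il23a (25.2), Il10 (20.3) and Il12b (10.7) were in its lower part. Within each library the TPM of Tgfb1 exceeded that of Osm in 6 of 6 libraries, by 1.41 to 5.94 times. The neighbours below them did not separate: the ratio of Ebi3 to Il12a ran from 0.807 to 1.95 with Ebi3 higher in 3 of 6 libraries, and the ratio of Il12a to Il27 ran from 0.733 to 1.82.

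**Figure D1:**
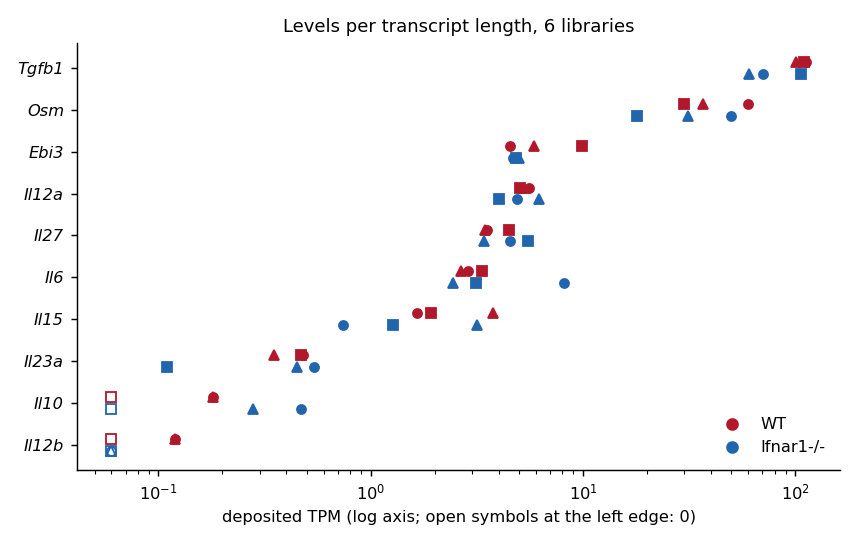
Deposited TPM of the 10 cytokine genes on a log axis, 1 symbol per library (red, WT; blue, Ifnar1-/-; circle, square and triangle for libraries 1, 2 and 3), with libraries listed at 0 drawn as open symbols at the left edge. Tgfb1 spans 60.27 to 112.03 TPM and Il12b 0 to 0.12, so the 10 genes cover about the whole range of the axis, and red and blue symbols intermingle for most genes.

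None of the 10 genes met both thresholds for differential expression, an adjusted p (edgeR) no higher than 0.05 together with a change of 1.5-fold or more. Of the 10, 7 passed the filter on low counts, and 0 of these 7 were called higher or lower in WT, where 1.67% of all 11254 tested genes were called higher and 0.462% lower (2.13% in either direction). The median log2 fold change (WT over Ifnar1-/-, as throughout) of the 7 was 0.41, with 5 positive and 2 negative values, and that of all tested genes was -0.01. At an unadjusted p under 0.05 there were 2 of the 7, Il15 and Tgfb1, and 17.8% of all tested genes. Every WT library lay above every Ifnar1-/- library in 1 of the 7, Il15, and in 11.1% of all tested genes, and the opposite order occurred in 0 of the 7 and in 12.2% of all tested genes. Since the libraries are of sorted cells in bulk, fewer cells that express a gene and less RNA of it per cell cannot be told apart.

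**Figure D2:**
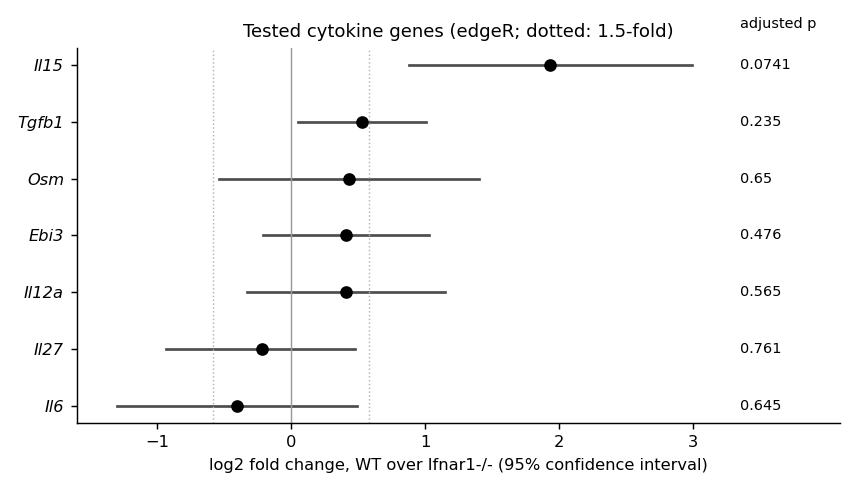
Log2 fold change of the 7 tested cytokine genes (points) with 95% confidence intervals (lines) from the edgeR fit across 11254 genes, on a linear log2 axis with dotted lines at 1.5-fold. The interval of Il15 (0.88 to 2.99) lies wholly above 0 and that of Tgfb1 (0.05 to 1.01) just above it, the other 5 include 0, and all adjusted p-values, printed at the right, exceed 0.05.

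Among the IL-12 family, Il12a, Ebi3 and Il27 had counts in every library, whereas Il12b was at the limit of detection. The counts of Il27 may include reads of Apobr, a gene that overlaps it. Il12a (chr3:68690644-68698547) had 57, 22 and 28 counts for WT and 32, 18 and 33 for Ifnar1-/- monocytes. As normalized CPM these were 8.11, 4.68 and 5.53 in WT and 4.89, 3.05 and 6.07 in Ifnar1-/- libraries. WT library 1 was highest, Ifnar1-/- library 2 was lowest, and the groups overlapped. The log2 fold change was 0.41 (SE 0.33, 95% interval -0.33 to 1.15, edgeR adjusted p = 0.565).

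The length that RSEM assigned to Il12a, a mean over its transcripts weighted by their share, was 1229, 1146 and 1275 bases in the WT libraries and 1044, 946 and 1029 bases in the Ifnar1-/- libraries. All 3 WT lengths thus lay above all 3 Ifnar1-/- lengths, for a gene whose 6 listed transcripts shared at most 57 counts in any library. The share of all genes whose lengths separate in this way was not counted, so no difference between the groups is drawn from it. On the TPM scale, which divides by that length, Il12a was at 5.30 ± 0.25 in WT and 5.05 ± 1.09 in Ifnar1-/- libraries (SD, n = 3 each).

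Il12b (chr11:44400063-44414033), the p40 chain that both IL-12 and IL-23 need, was nearly absent. It had 2, 0 and 1 counts in the WT libraries and 0 in each of the 3 Ifnar1-/- libraries. Over the WT libraries together this was 3 of 16799909 counts, or 0.179 CPM with an exact Poisson 95% interval of 0.0368 to 0.522. The 0 of 18169992 counts in the Ifnar1-/- libraries allow up to 0.165 CPM at 3 counts, or 0.203 by the exact interval. It did not pass the filter on low counts, and in the fit without that filter the edgeR adjusted p was 0.592, with no fold change given since 1 group was at 0. P-values of that fit follow a gene's own spread between libraries less closely than those of the main fit. The T cell marker Cd8a, at 7, 4 and 53 counts in WT and 10, 4 and 5 in Ifnar1-/- libraries, had an unadjusted edgeR p of 0.000122 in it. A difference between the groups was not detectable at this depth.

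Il23a (chr10:128296139-128298752), the p19 chain of IL-23, had 7, 3 and 2 counts in WT and 6, 1 and 4 in Ifnar1-/- libraries. The groups covered the same range, with 0.395 to 0.996 normalized CPM in WT and 0.169 to 0.916 in Ifnar1-/- libraries. Summed over libraries, Il23a reached 0.714 CPM (0.369 to 1.25) in WT and 0.605 CPM (0.302 to 1.08) in Ifnar1-/- libraries. It did not pass the filter on low counts. Fitted without that filter, its log2 fold change was 0.18 (SE 0.88, 95% interval -1.54 to 1.89, edgeR adjusted p = 0.958), an interval that leaves a change of more than 2-fold in either direction unresolved.

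The IL-27 chains were better covered. Il27 (chr7:126589010-126594941), the p28 chain, was at 4.13, 3.61 and 2.76 normalized CPM for WT and at 4.43, 4.58 and 3.31 for Ifnar1-/- monocytes. Ifnar1-/- libraries 1 and 2 were the highest of the 6, and WT library 3 was the lowest, with the groups overlapping. The log2 fold change was -0.22 (SE 0.32, edgeR adjusted p = 0.761), and the 95% interval ran from 0.526-fold to 1.4-fold. Il27 overlaps Apobr on the opposite strand, and Apobr, at 109 ± 51.4 normalized CPM in WT and 68.9 ± 22.7 in Ifnar1-/- libraries (SD, n = 3 each), carried many more reads. Whether the counting used strand is not given in the sources used here, so reads of Apobr within Il27 cannot be told from reads of Il27.

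Ebi3 (chr17:55952640-55957022), the chain that joins p28 in IL-27 and p35 in IL-35, was at 6.26, 9.35 and 5.53 normalized CPM in WT and at 5.34, 4.74 and 5.70 in Ifnar1-/- libraries. WT libraries 1 and 2 were the highest, but WT library 3 lay below Ifnar1-/- library 3. It had a log2 fold change of 0.41 (SE 0.28, 95% interval -0.21 to 1.03, edgeR adjusted p = 0.476). Its antisense neighbour Gm16712 had 0 counts in all 6 libraries. Per length, Ebi3 exceeded its partner Il27 in 5 of 6 libraries, with TPM ratios between 0.88 and 2.19. Both genes had counts in every library of both genotypes, but the counts and TPM of Il27 may include reads of Apobr.

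Il6 and Osm both belong to the IL-6 family, whose receptors share the gp130 chain. Il6 (chr5:30013114-30019981), which starts the Th17 programme together with TGF-β, was at 4.55, 4.25 and 4.15 normalized CPM for WT, compared with 9.62, 4.24 and 3.13 for Ifnar1-/- monocytes. The 3 WT values were close together, and the Ifnar1-/- libraries held both the highest and the lowest value of the 6. The log2 fold change was -0.40 (SE 0.40, 95% interval -1.30 to 0.49, edgeR adjusted p = 0.645). Its sign rested on Ifnar1-/- library 1, since without that library it was 0.24 (SE 0.34, edgeR adjusted p = 0.828).

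Osm (chr11:4236420-4241026), oncostatin M, a cytokine made by myeloid cells that acts mainly on stromal and endothelial cells, was at 170, 58.0 and 71.9 normalized CPM for WT and at 117, 37.1 and 69.3 for Ifnar1-/- monocytes. Library 1 was highest and library 2 lowest in both groups, and the spread within a group, 100 ± 61.2 in WT and 74.4 ± 40.1 in Ifnar1-/- libraries (SD, n = 3 each), exceeded the difference between them. The log2 fold change was 0.43 (SE 0.44, 95% interval -0.54 to 1.40, edgeR adjusted p = 0.65). Without WT library 1 it was -0.19 (SE 0.36, edgeR adjusted p = 0.894), in a fit that kept Ifnar1-/- library 1, the highest of its group. With a replicate block, which compares same-numbered libraries, it was 0.41 (SE 0.16, edgeR adjusted p = 0.241). Library 1 was also the most deeply sequenced of each group, at 7321380 and 6916101 expected counts, and in WT library 1 the 7SL RNA gene Rn7s2 took 27.8% of all TPM against 7.36% to 11.2% in the other libraries. The part of these differences in the Osm values was not tested.

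Il10 and Tgfb1 encode the cytokines of the group best known for restraining Th cells. Il10 (chr1:131019845-131024974) had 2, 0 and 1 counts in the WT libraries and 4, 0 and 2 in the Ifnar1-/- libraries. Library 2 had no count in either group and no library exceeded 4. Summed over libraries, this was 3 of 16799909 counts in WT, 0.179 CPM (0.0368 to 0.522), and 6 of 18169992 in Ifnar1-/- libraries, 0.33 CPM (0.121 to 0.719), with exact Poisson 95% intervals that overlap. Il10 was too low for the filter. In the fit without it the log2 fold change was -0.85 (SE 1.32, edgeR adjusted p = 0.795), with a 95% interval from 10.9-fold lower to 3.34-fold higher in WT. At this depth neither a marked rise nor a marked fall of Il10 with IFNAR1 could be detected. Il10 lies 7.04 Mb from Ptprc, the gene of the CD45 allele that marks the donors.

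Tgfb1 (chr7:25687002-25705077), TGF-β1, was the best measured of the 10 genes, with 696 to 2132 counts per library. Its level was 303, 210 and 188 normalized CPM for WT and at 160, 198 and 128 for Ifnar1-/- monocytes. WT libraries 1 and 2 were the highest and Ifnar1-/- libraries 1 and 3 the lowest, but Ifnar1-/- library 2 lay above WT library 3, so the groups overlapped. The means were 234 ± 61.4 in WT and 162 ± 35 in Ifnar1-/- libraries (SD, n = 3 each). The log2 fold change was 0.53 (SE 0.22, 95% interval 0.05 to 1.01, unadjusted p = 0.0334 and adjusted p = 0.235 by edgeR), so the interval ran from 1.04-fold to 2.01-fold. It was 0.30 without WT library 1 and 0.72 without Ifnar1-/- library 2.

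Il15 (chr8:82331632-82403222, reverse strand), which sustains NK cells and memory CD8+ T cells and is displayed by myeloid cells together with its α receptor, was the gene with the largest difference between the groups among the 7 tested. It had 19, 10 and 22 counts for WT and 6, 3 and 5 for Ifnar1-/- monocytes. As normalized CPM these were 2.70, 2.13 and 4.34 in WT and 0.916, 0.508 and 0.919 in Ifnar1-/- libraries, so every WT library lay above every Ifnar1-/- library. The group means were 3.06 ± 1.15 and 0.781 ± 0.236 (SD, n = 3 each).

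The fitted fold change of Il15 was 3.82, with a log2 value of 1.93 (SE 0.48, 95% interval 0.88 to 2.99, or 1.84-fold to 7.94-fold). The unadjusted edgeR p was 0.0021 and the adjusted p 0.0741, above the threshold. Summed over libraries there were 51 counts in WT and 14 in Ifnar1-/- monocytes, a ratio of 3.94 after scaling to the totals, with an exact 95% counting interval of 2.15 to 7.71. A two-sided exact permutation test on log2(normalized CPM + 0.5) gave p = 0.1, the smallest that 3 libraries against 3 allow. Il15 passed the filter on low counts only through the WT libraries, and whether it met the thresholds depended on the fit. Its adjusted p by edgeR was 0.0213 without that filter, in the fit that follows the spread between libraries less closely, as given with Il12b. The SE of Il15 was 0.57 in that fit, against 0.48 in the main fit. It ranged up to 0.23 when Ifnar1-/- library 1 was left out.

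On the TPM scale the groups did not separate for Il15. Its TPM was 1.65, 1.92 and 3.77 for WT and 0.74, 1.28 and 3.18 for Ifnar1-/- monocytes, so Ifnar1-/- library 3 lay above WT libraries 1 and 2. The scales differ in the length assigned to the gene, which has 10 transcripts in the files, and in the scaling of TPM to a fixed sum. Rn7s2 took 27.8% of that sum in WT library 1. The assigned length was 1354, 1331 and 1384 bases in the WT libraries and 1251, 584 and 421 bases in the Ifnar1-/- libraries. In Ifnar1-/- libraries 2 and 3 the share given to short transcripts rested on 3 and 5 counts.

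Markers of T and NK cells, lymphocytes that respond to IL-15, had higher means in WT libraries, and their part in the values of Il15 was not tested. The 9 T cell markers summed to 18.5 to 46.0 normalized CPM in WT and 8.30 to 20.6 in Ifnar1-/- libraries. These sums overlapped between the groups, with all 9 means above in WT. Only 6 of these T cell markers passed the filter on low counts, and Cd3d, like Il15, did so through the WT libraries alone. Their log2 fold changes all lay above 0 (median 1.6), but none of the 6 met both thresholds. The unadjusted edgeR p was under 0.05 for 5 of them, against 17.8% of all tested genes. In the fit without that filter the 3 others were at 0.31 (Trbc1), 1.79 (Trac) and 1.91 (Cd8a), and their groups overlapped. The 5 NK cell markers summed to 15.4 to 20.7 and 2.57 to 5.25, and Klrk1 made up most of that sum, whereas Ncr1, the defining NK cell receptor, was at 0 in 5 of 6 libraries. Klrk1 was called, with a log2 fold change of 2.05 (edgeR adjusted p = 0.0057).

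**Figure D3:**
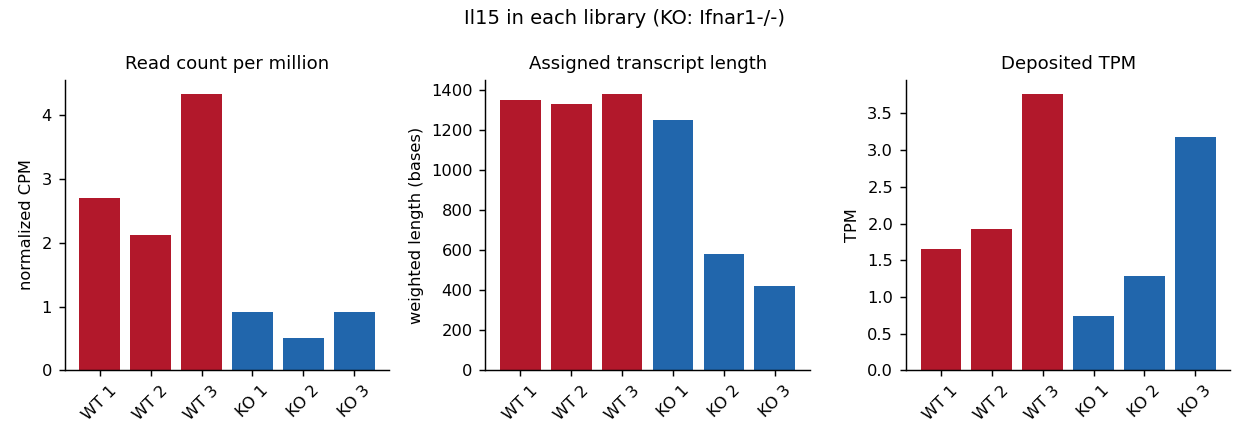
Il15 in each library (red, WT; blue, Ifnar1-/-, marked KO) as normalized CPM, as the transcript length assigned by RSEM in bases, and as deposited TPM, on linear axes from 0. CPM is 2.13 or more in all WT and 0.919 or less in all Ifnar1-/- libraries, while the length falls to 584 and 421 bases in Ifnar1-/- libraries 2 and 3, where TPM reaches 1.28 and 3.18.

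**Figure D4:**
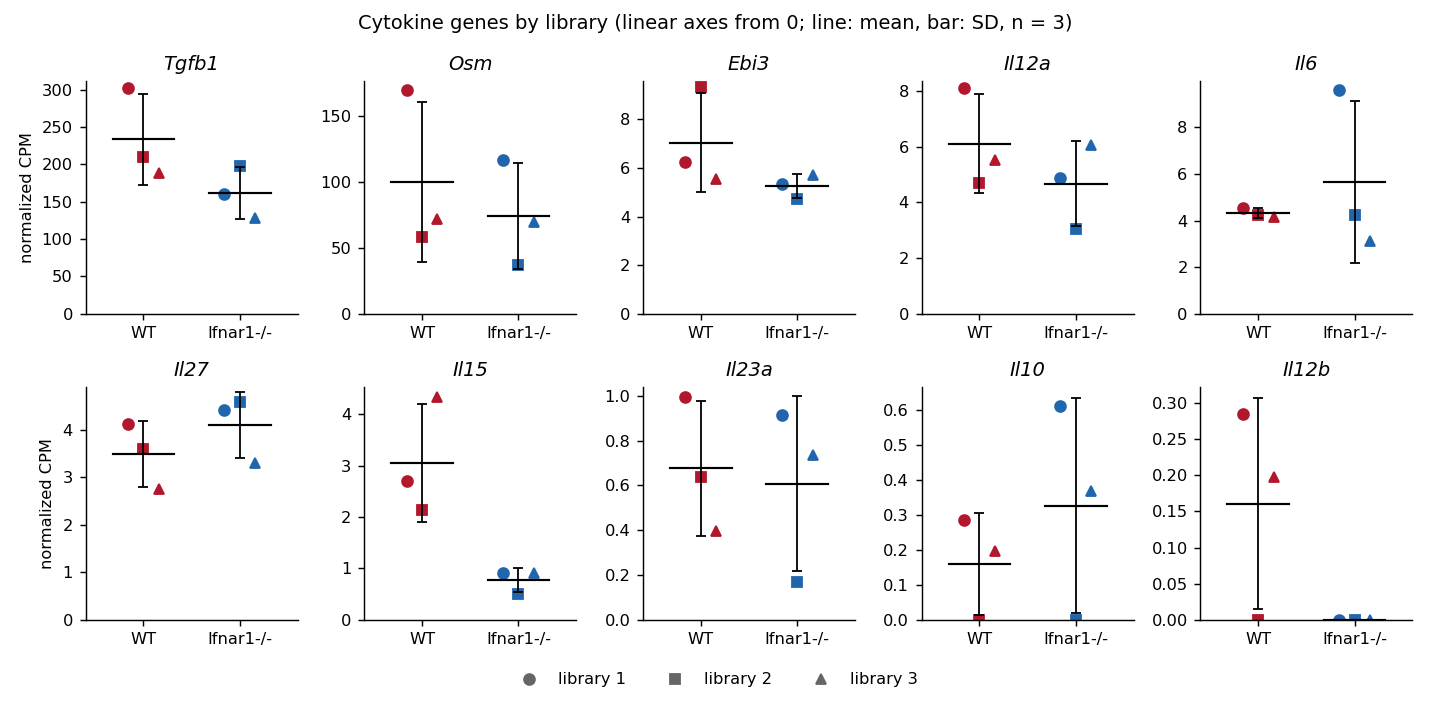
Normalized CPM of the 10 cytokine genes in each library (red, WT; blue, Ifnar1-/-; circle, square and triangle for libraries 1, 2 and 3), with the mean (line) and SD (bar, n = 3), on linear axes from 0 that differ between panels. Only for Il15 do all WT libraries lie above all Ifnar1-/- libraries, Osm is highest in library 1 of both groups, and Il12b, Il10 and Il23a stay below 1 CPM.

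The genes through which these cytokines are sensed, activated and controlled were read from 6 further lists, chosen with earlier results of these data known. The lists held 119 genes in all, of which 87 were tested. Of these, 6 were called higher in WT and 0 lower, and the median of their log2 fold changes was 0.26, while 20 of the 87 had an unadjusted p under 0.05. Over all tested genes 1.67% were called higher, 0.462% were called lower and 17.8% had an unadjusted p under 0.05. The called genes were Il2rb, Ltbp1, Il18, Cd40, Maf and Stat2. Single libraries decided some of these calls: 2 genes were called without WT library 1, 3 without WT library 3, 2 without Ifnar1-/- library 1 and 1 without Ifnar1-/- library 3.

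Of the 16 receptor genes, 12 were tested, 1 was called higher and 0 lower, and the median log2 fold change was 0.36. The called gene was Il2rb, the β chain shared by the receptors of IL-2 and IL-15, at 18.1, 7.44 and 12.6 normalized CPM in WT and 5.04, 4.74 and 4.23 in Ifnar1-/- libraries. The groups did not overlap, with a log2 fold change of 1.46 (SE 0.32, edgeR adjusted p = 0.0478). Il2rb is a gene of NK and T cells, whose marker sums are given above with Il15, and the part of those cells in its value was not tested. The call was lost when any library other than WT library 2 was left out, with adjusted p between 0.108 and 0.168 by edgeR, and also with limma-voom (adjusted p = 0.0834), GC and length offsets (0.0649) or the replicate block in DESeq2 (0.0646).

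The other chains of the IL-15 receptor were at 30.9 ± 3.46 (Il15ra) and 141 ± 38.0 normalized CPM (Il2rg) in WT, and at 25.8 ± 5.96 and 98.4 ± 19.6 in Ifnar1-/- libraries (SD, n = 3 each), and neither was called. Osmr, the oncostatin M receptor chain, had 0 counts in all 6 libraries, and Il10ra, the ligand-binding chain of the IL-10 receptor, was at 226 to 241 normalized CPM in WT and 173 to 192 in Ifnar1-/- libraries (log2 fold change 0.36, SE 0.13, edgeR adjusted p = 0.195). Monocytes of both groups thus held RNA of a receptor for IL-10, although Il10 itself was close to 0. These 4 receptor genes were chosen after their values were seen.

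Of the 19 genes of TGF-β activation and family, 8 were tested, 1 was called higher and 0 lower, with a median log2 fold change of 0.32. Ltbp1, which binds latent TGF-β and anchors it to the matrix, had 28, 9 and 10 counts in WT and 0, 1 and 1 in Ifnar1-/- libraries. Scaled to the totals, 47 against 2 counts is a ratio of 25.4 with an exact 95% counting interval of 6.66 to 216, and the edgeR adjusted p was 0.013. Like Il15, Ltbp1 passed the filter on low counts only through the WT libraries, and DESeq2 gave no adjusted p for it. Leaving out WT library 1 or any of the Ifnar1-/- libraries gave adjusted p between 0.0545 and 0.0851.

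Of 31 other cytokine and costimulatory genes, 14 were tested, 2 were called higher and 0 lower, with a median of 0.36. Il18, which acts with IL-12 on Th1 and NK cells, was at 7.54, 9.56 and 6.32 normalized CPM in WT and 3.66, 2.37 and 2.39 in Ifnar1-/- libraries (log2 fold change 1.45, SE 0.31, edgeR adjusted p = 0.0401). Cd40, the receptor through which Th cells license APCs, was at 42.0, 44.8 and 38.1 in WT and 23.4, 23.0 and 22.1 in Ifnar1-/- libraries (log2 fold change 0.87, SE 0.14, edgeR adjusted p = 0.00936). Both genes were higher in every WT than in every Ifnar1-/- library. Il18 lost its call when any 1 of the 6 libraries was left out, with adjusted p from 0.0562 to 0.142 by edgeR, and also with limma-voom (adjusted p = 0.0505) or a replicate block (0.0548 in edgeR and 0.133 in DESeq2). Cd40 lost its call only without Ifnar1-/- library 3 (edgeR adjusted p = 0.0525).

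All 27 transcription factor genes were tested, 2 were called higher and 0 lower, and their median log2 fold change was 0.30. Stat2, which carries the type I IFN signal itself, was at 189, 123 and 139 normalized CPM in WT and 30.8, 44.1 and 35.3 in Ifnar1-/- libraries. With a log2 fold change of 2.04 (SE 0.20, edgeR adjusted p = 0.000347), it was called without any 1 library as well. Maf, a factor known to drive Il10 in macrophages and T cells, was at 110, 80.1 and 80.6 in WT and 48.3, 58.0 and 43.8 in Ifnar1-/- libraries (log2 fold change 0.85, SE 0.17, edgeR adjusted p = 0.0336). Its call was lost without WT library 1 or 3, or without Ifnar1-/- library 1 or 3, with adjusted p between 0.0562 and 0.168.

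None of the 10 mRNA decay factors and none of the 16 genes of feedback downstream of these receptors was called in either direction, all of them being tested. Their median log2 fold changes were 0.29 and 0.16, and at an unadjusted p under 0.05 there were 2 decay factors and 0 feedback genes. The most abundant decay factors were Zfp36, which shortens the life of many cytokine mRNAs, at 607 ± 277 normalized CPM in WT and 386 ± 119 in Ifnar1-/- libraries, and Zfp36l2, at 487 ± 152 and 304 ± 23.2 (SD, n = 3 each; edgeR adjusted p = 0.338 and 0.15). The most abundant feedback genes were Socs3, an inhibitor of signals through gp130, at 532 ± 34.4 and 463 ± 19.0, and Skil, a repressor of TGF-β targets, at 425 ± 26.8 and 447 ± 56.1 (edgeR adjusted p = 0.499 and 0.844).

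**Figure D5:**
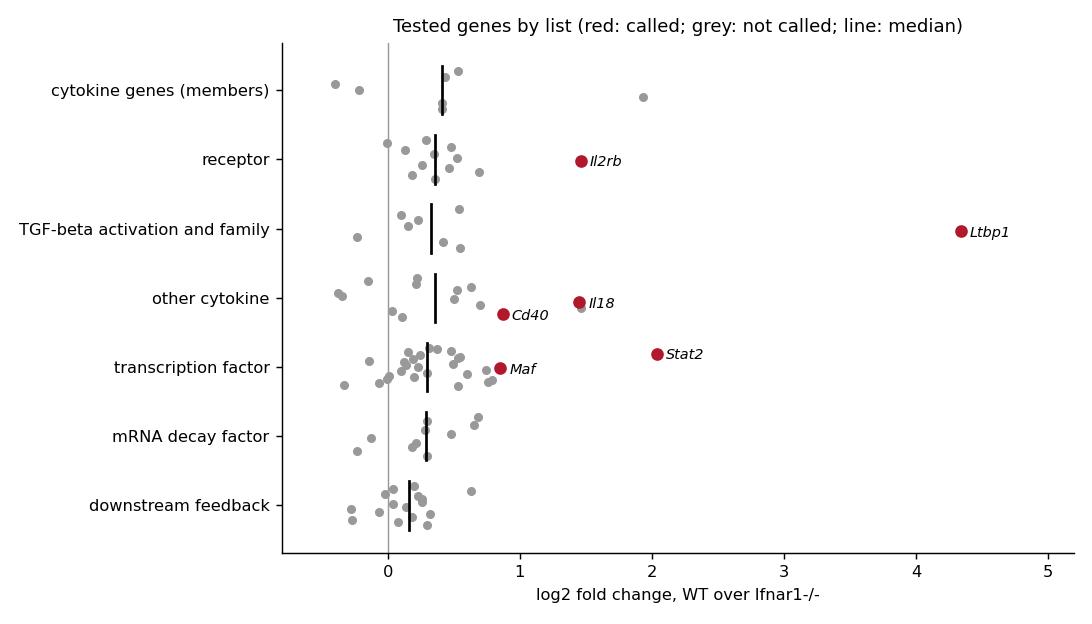
Log2 fold change (WT over Ifnar1-/-) of every tested gene of the 10 cytokine genes and of the 6 related lists, 1 point per gene, with the median of each list as a black line (red, called by edgeR; grey, not called). The medians lie between 0.16 and 0.41, the 6 called genes are all to the right, and no cytokine gene is red.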

How the data were processed

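Sorted CNS monocytes of 3 WT and 3 Ifnar1-/- samples were sequenced by the authors with stranded paired-end reads. The labels and the study's methods name different library kits. Per the labels' processing notes, STAR 2.6.0c and RSEM 1.2.31 were used on GRCm38. The deposited files give per gene an expected count, estimated by RSEM and not normalized, a TPM that the authors' RSEM run divides by transcript length and scales to a fixed sum, and a weighted transcript length. Whether counting used strand is not given in the sources used here.

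Gene names and positions came from GENCODE M21, which matched 54165 of 54232 identifiers. Expected counts were rounded. WT and Ifnar1-/- libraries were compared with edgeR 4.0.16 in R 4.3.3 (TMM, filterByExpr at its minimum count of 10, quasi-likelihood test, Benjamini-Hochberg adjustment over the 11254 genes tested, no block). The thresholds for a call were those of the study's methods, an adjusted p no higher than 0.05 with a change of 1.5-fold or more. TPM differences are on the log2(TPM + 0.5) scale and untested. A count of 3 of the 4531782 to 7321380 counts per library was the floor. The fit was tested on simulated data.

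The cytokine genes, related lists and marker lists were chosen with earlier results of these data known. All 10 cytokine genes are named, and of each related list the called genes (up to 4 per direction), or else the 2 with the highest mean count. Samples were grouped by the labels. Alternatives were DESeq2 1.42.0, limma-voom (limma 3.58.1), RLE and upper-quartile normalization, other filters and gene sets, GC and length offsets, a replicate block, leaving out each library, an adjusted p alone, and other TPM pseudocounts. TPM rescaled over protein-coding genes was chosen after seeing the data.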

Additional observations from a re-analysis of the deposited data

How the results depend on the processing

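None of the 10 cytokine genes was called under any alternative except Il15, which was the 1 gene called without the filter on low counts (log2 fold change 1.93, adjusted p = 0.0213 by edgeR) and the 1 called with the replicate block together with GC and length offsets (2.01, adjusted p = 0.0482). Over its alternatives the log2 fold change of Il15 stayed between 1.64 and 2.14 and its adjusted p between 0.0213 and 0.23. DESeq2 gave no adjusted p for it, and it could not be tested at 10 counts in every library. The cause was not tested. The sign of Il6 reversed without Ifnar1-/- replicate 1 (0.24, over a range of -0.66 to 0.24 with each library left out) and that of Osm without WT replicate 1 (-0.19, over a range of -0.19 to 0.94). The signs of Il12a, Il15, Il27, Ebi3 and Tgfb1 were kept under all their alternatives. Tgfb1 ranged from 0.30 to 0.72, with adjusted p from 0.062 to 0.575. Leaving out 1 library each gave 0 calls among the cytokine genes, 1 to 7 among the related lists, 110 to 204 of all genes higher and 7 to 41 lower. The lowest count of related genes, 1, was without Ifnar1-/- replicate 3, which left 110 of all genes higher. Only 7 genes were lower without WT replicate 3 or without Ifnar1-/- replicate 1.

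Without the filter on low counts 15 related genes, 610 genes higher and 262 lower were called. Of these, 575 higher and 246 lower were among the genes tested with the filter. At the same log2 fold change of 0.43, the SE of Osm was 0.17 without the filter and 0.44 with it. The SE also fell for Il6 (0.34 against 0.4) and Tgfb1 (0.18 against 0.22), and that of Il12a was 0.33 in both fits. It rose for Il15 (0.57 against 0.48), Il27 (0.38 against 0.32) and Ebi3 (0.31 against 0.28). P-values without the filter follow a gene's own spread less closely, and the cause of the added calls was not tested. DESeq2 called 314 higher and 105 lower, against 188 and 52 by edgeR. With the replicate block edgeR called 182 higher, 38 lower, 6 related genes and 0 cytokine genes. Of the related genes 5 were shared with the fit without a block, Il18 was lost and 1 other entered. Osm had an adjusted p of 0.241 (SE 0.16) under the block. Deviations of same-numbered libraries correlated by 0.0906, 0.0278 and 0.275, and those of libraries with different numbers by -0.196 to 0.092. WT replicate 1 correlated as much with Ifnar1-/- replicate 2 (0.092) as with its own number, and only 1 same-numbered correlation exceeded 0.1, so the numbers were not shown to pair libraries. The median log2 fold change of the genes tested moved by less than 0.1 under every scaling. The log2 TPM difference of Il12b, 0.21, was 0.76 with a pseudocount of 0.1 and 0.44 after rescaling TPM over protein-coding genes. After that rescaling the groups did not overlap for Ebi3, which they did as normalized CPM and as deposited TPM, with values of 13.1, 19.2 and 11.8 in WT and 10.8, 9.4 and 11.5 in Ifnar1-/- libraries. The share of all genes that separate on this scale was not counted.

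Depth limits Il10, Il12b and Il23a, which had at most 7 counts in any library and did not pass the filter on low counts, and Il15, which rests on 65 counts in all. In the fit without a block, the 3 libraries per group limit Osm and Il6. The SD of Osm exceeded the difference between the means in both groups, and that of Il6 did so in the Ifnar1-/- group. Donor strain cannot be told apart from genotype, and Il27 cannot be told apart from reads of Apobr if strand was not used.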
